A study of Mus musculus with 4 samples.

Results

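Glucocorticoid hormones are known to switch on a set of target genes, and 10 of these were followed in the frontal neocortex (medial prefrontal cortex, mPFC) of mice with and without chronic stress. The genes are Fkbp5, Sgk1, Tsc22d3, Klf9, Ddit4, Mt1, Mt2, Errfi1, Cdkn1a and Zbtb16. They were chosen by name from what is known of the hormone response, but with earlier results of these data known. All 10 of 10 were found among the 17778 genes of the deposited table. The mice were males of the inbred laboratory strain C57BL/6 by the labels, given as C57BL/6J in the methods of the study, and entered the study at postnatal day 21. One group (CUMS, 2 libraries) went through chronic unpredictable mild stress for 3 weeks, a daily schedule of changing mild stressors with social isolation, and only those CUMS mice were used that met the criteria of depression-like behavior in every test. The control group (2 libraries) lived without these stressors. In both groups the tissue was taken 24 hours after the behavior tests, which were given to control and CUMS mice alike and included forced swimming. RNA was isolated mouse by mouse, but the sources do not say outright that a library holds 1 mouse only.

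Glucocorticoids, corticosterone in the mouse, are released by the adrenal gland in a daily rhythm and in response to stress. They bind the glucocorticoid receptor (gene Nr3c1) and the mineralocorticoid receptor (gene Nr3c2) inside the cell. The bound receptors enter the nucleus and attach to glucocorticoid response elements (GRE). The form searched here was the half-site AGAACA, a short gap, and the same half-site on the other strand. Genes near such elements are transcribed within minutes to hours, in neurons as well as in glia and vessel cells, and several of them brake the hormone response or the growth signals of the cell. Corticosterone itself was not among the measurements analysed here, so that the mRNA levels below are not set against a hormone level.

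Sequences around the gene starts are shown for Sgk1, in which a glucocorticoid response element was found. They are also shown for Mt1 and Mt2, which held the most matches to its counterpart for metals. Such elements are the sites at which the hormone or metals are known to act. RefSeq windows of 300 bases (250 before and 50 after a start, build GRCm38.p6) were found for 9 of 10 genes, in 18 windows. The half-site AGAACA, or TGTTCT on the other strand, was present in 4 of 18 windows, which belonged to Sgk1 and Tsc22d3, against 19.0% of 32851 windows of all genes. The full element, in which AGAACA is followed by any 3 bases and by TGTTCT, reads the same on both strands. It was present in 1 of 18 windows, at Sgk1, and in 3 of all 32851 windows. It lies from 189 to 175 bases before this start of Sgk1. Only exact matches inside these windows were searched, so that an element with other letters or farther from a start would be missed. A window without a match therefore does not show that its gene lacks an element. In the Sgk1 window (chr10:21993640-21993939, plus strand), the capitals mark the full element.
Sgk1: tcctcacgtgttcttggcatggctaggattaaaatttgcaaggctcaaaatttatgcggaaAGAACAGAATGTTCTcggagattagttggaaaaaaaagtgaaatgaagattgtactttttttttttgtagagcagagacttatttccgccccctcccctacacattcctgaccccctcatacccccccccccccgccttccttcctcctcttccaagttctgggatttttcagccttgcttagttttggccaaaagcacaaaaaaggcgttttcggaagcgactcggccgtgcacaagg

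The metallothionein genes Mt1 and Mt2 are known to be switched on through metal response elements, for which the core TGCACNC or TGCGCNC was searched on both strands (GNGTGCA or GNGCGCA on the other). The core was present in 25.7% of all windows, so that a match is common. Mt2 held 4 matches and Mt1 held 3, while Ddit4 and a further start of Sgk1 held 1 each. In Mt1 the matches from 2 to 8 and from 20 to 26 bases lie after the start, as does that from 4 to 10 in Mt2. The start of the Mt1 window is base 94179089, which lies inside the gene span given below. In Mt1 (chr8:94178839-94179138, plus strand) and Mt2 (chr8:94172368-94172667, plus strand), the capitals mark these matches.
Mt1: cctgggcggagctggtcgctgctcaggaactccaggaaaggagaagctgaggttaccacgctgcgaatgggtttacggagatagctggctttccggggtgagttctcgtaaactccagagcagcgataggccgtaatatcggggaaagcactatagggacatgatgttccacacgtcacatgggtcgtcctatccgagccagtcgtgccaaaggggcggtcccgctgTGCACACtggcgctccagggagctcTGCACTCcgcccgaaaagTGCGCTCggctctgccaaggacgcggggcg
Mt2: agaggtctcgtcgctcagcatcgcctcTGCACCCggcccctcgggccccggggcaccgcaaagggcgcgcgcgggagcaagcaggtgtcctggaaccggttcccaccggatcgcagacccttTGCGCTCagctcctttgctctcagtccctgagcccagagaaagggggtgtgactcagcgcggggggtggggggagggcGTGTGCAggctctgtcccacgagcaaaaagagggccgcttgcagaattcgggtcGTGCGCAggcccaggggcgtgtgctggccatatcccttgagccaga
These matches are letters in the reference sequence and no measurement of a bound protein.

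The levels were given as RPKM (reads divided by gene length and by library size), which allows a comparison between genes, and as 1 mean per gene and group over the 2 libraries. No value of a single library was in the table, so that the spread between mice is unknown and no difference below has a test. The 95% intervals cover the error of counting fragments alone. They rest on a depth estimated from the table, 7385524 fragments in a control library and 7440476 in a CUMS library. The neocortical tissue was recognisable in both groups, as 10 of 10 excitatory neuron markers were present, with the glutamate transporter gene Slc17a7 at 635 RPKM in control against 791 RPKM in CUMS.

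Across the 10 genes the stressed mice had no common direction. In the CUMS mean 4 genes were higher and 6 were lower, with log2 ratios (CUMS over control) from -0.68 for Cdkn1a to 0.51 for Sgk1. The median log2 ratio was -0.06, beside -0.02 over 14257 genes that reached 0.5 RPKM in control or CUMS, a minimum that 10 of 10 genes passed. A change above 1.5-fold was seen in 1 of 10 genes, Cdkn1a, which was lower in CUMS. Among all genes above this minimum, 7.2% passed 1.5-fold in either direction and 4.42% were lower by this much, and among 9397 genes of at least 5 RPKM, where all 10 genes lie, it was 1.6%. The counting interval left out equal expression in 6 of 10 genes, beside 29.3% of the genes of at least 0.5 RPKM and 35.2% of those of at least 5 RPKM. It lay above 0 in 3 genes (Sgk1, Klf9 and Ddit4) and under 0 in 3 genes (Cdkn1a, Mt1 and Tsc22d3). Among the genes of at least 0.5 RPKM these shares were 12.5% and 16.8%. Shares by direction were not taken for the genes of at least 5 RPKM.

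**Figure D1:**
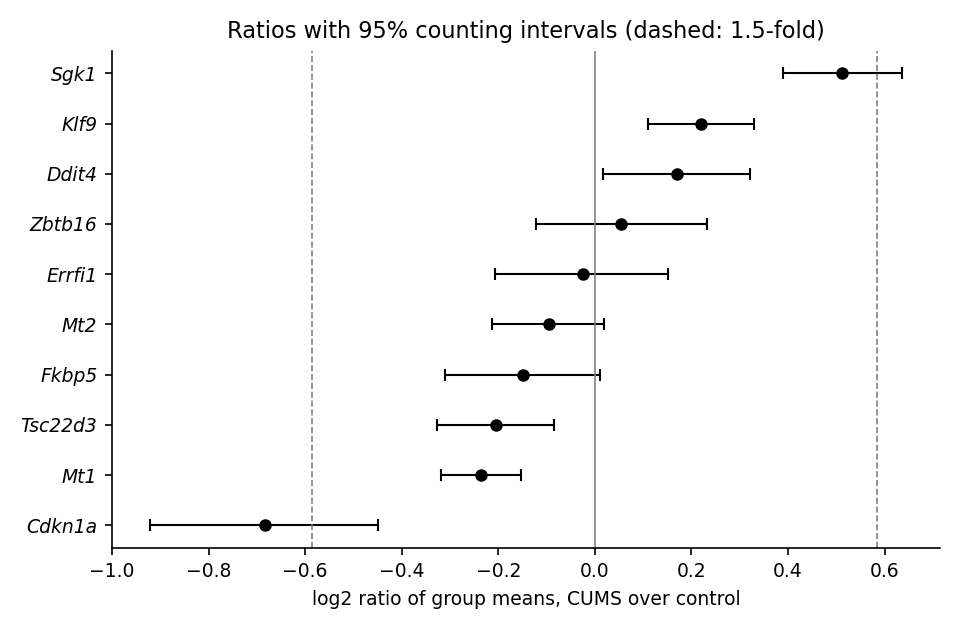
The log2 ratio (CUMS mean divided by control mean) is plotted for each of the 10 genes, with bars for the 95% counting interval and dashed lines at a 1.5-fold change. Cdkn1a at -0.68 is the only point beyond a dashed line, Sgk1 at 0.51 lies just inside the other, and the bars of Zbtb16, Errfi1, Mt2 and Fkbp5 cross 0.

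Sgk1 (gene 20393, chromosome 10, 21882184 to 21999903) codes for a kinase that regulates ion channels, transporters and cell survival, and it is a classic early target of both corticosteroid receptors. Control mice had a mean of 23.1 RPKM (904 fragments in all) and CUMS mice one of 32.9 RPKM (1299 fragments). It was the member with the largest ratio above 0, 1.43-fold higher in CUMS, a log2 ratio of 0.51 (counting interval 0.39 to 0.64). Of the genes of at least 5 RPKM, 99.5% had a lower ratio. Its relative Sgk3, a kinase of the same family, was 2.01 RPKM in control against 2.24 RPKM in CUMS, a log2 ratio of 0.16 (-0.16 to 0.46). Sgk1 has 13 transcripts in GENCODE and starts at 6 places in the promoter windows, and its deposited length of 2652.08 bases is one value for all of them. The table therefore does not show which start, and hence whether the one behind the full element, was used.

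Klf9 (gene 16601, chromosome 19, 23141226 to 23168129) codes for a zinc finger transcription factor that also follows the daily corticosterone rhythm. Its mean was 25.9 RPKM in control against 30.1 RPKM in CUMS, a log2 ratio of 0.22 (0.11 to 0.33). Klf13, a relative of the same family, was 39.0 RPKM and 40.4 RPKM, and the ratio of Klf9 to Klf13 was 0.664 in control and 0.746 in CUMS, a log2 difference of 0.17 (0.04 to 0.29). Zbtb16 (gene 235320, chromosome 9, 48651797 to 48836225) codes for PLZF, a transcriptional repressor. It had the lowest control level of the 10 genes, 6.85 RPKM against 7.11 RPKM in CUMS, and its interval of -0.12 to 0.23 held 0.

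Ddit4 (gene 74747, chromosome 10, 59949675 to 59951770) codes for REDD1, a stress-induced inhibitor of the growth kinase mTORC1. Its mean was 26.6 RPKM in control against 30.0 RPKM in CUMS, a log2 ratio of 0.17 (0.02 to 0.32). The lower bound is close to 0, and with a depth of 0.5 times the estimate the interval held 0. Ddit4l, its relative, was 4.81 RPKM and 4.97 RPKM. Errfi1 (gene 74155, chromosome 4, 150853796 to 150868889) codes for MIG6, an inhibitor of the EGF receptor. It stood at 11.6 RPKM in control against 11.4 RPKM in CUMS, the ratio nearest to 0 among the 10 genes (-0.03, interval -0.21 to 0.15).

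Cdkn1a (gene 12575, chromosome 17, 29090979 to 29100722) codes for p21, an inhibitor of cyclin-dependent kinases that stops the cell cycle and is also a target of p53. Its mean was 13.7 RPKM in control (386 fragments) and 8.52 RPKM in CUMS (242 fragments). It was the member with the largest difference in ratio, 1.61-fold lower in CUMS, a log2 ratio of -0.68 (-0.92 to -0.45). Only 0.83% of the genes of at least 5 RPKM had a lower ratio. Cdkn1a is not among the genes that the study lists as lowered, for which a probability was required besides the fold. A gene on the opposite strand, AC167363.2, shares 7.68% of its exon bases, and whether the counting used strand is not stated. Among the related inhibitors, Cdkn1b (p27) was 13.5 RPKM in control against 11.4 RPKM in CUMS, a log2 ratio of -0.25 (-0.44 to -0.05). Cdkn1c (p57) was 4.07 RPKM and 5.53 RPKM, a log2 ratio of 0.44 (0.09 to 0.80) in the other direction. The ratio of Cdkn1a to Cdkn1b was 1.02 in control and 0.75 in CUMS, a log2 change of -0.44 (-0.74 to -0.14). That of Cdkn1a to Cdkn1c was 3.37 in control and 1.54 in CUMS, a log2 change of -1.13 (-1.54 to -0.71). Neither change depends on the scaling between groups.

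Sgk1 and Cdkn1a are the outermost of the 10 genes, a pair picked after the values were seen. Within control the Sgk1 level was 1.69 times that of Cdkn1a, and within CUMS it was 3.87 times. The log2 change of this ratio was 1.20 (counting interval 0.93 to 1.46).

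**Figure D2:**
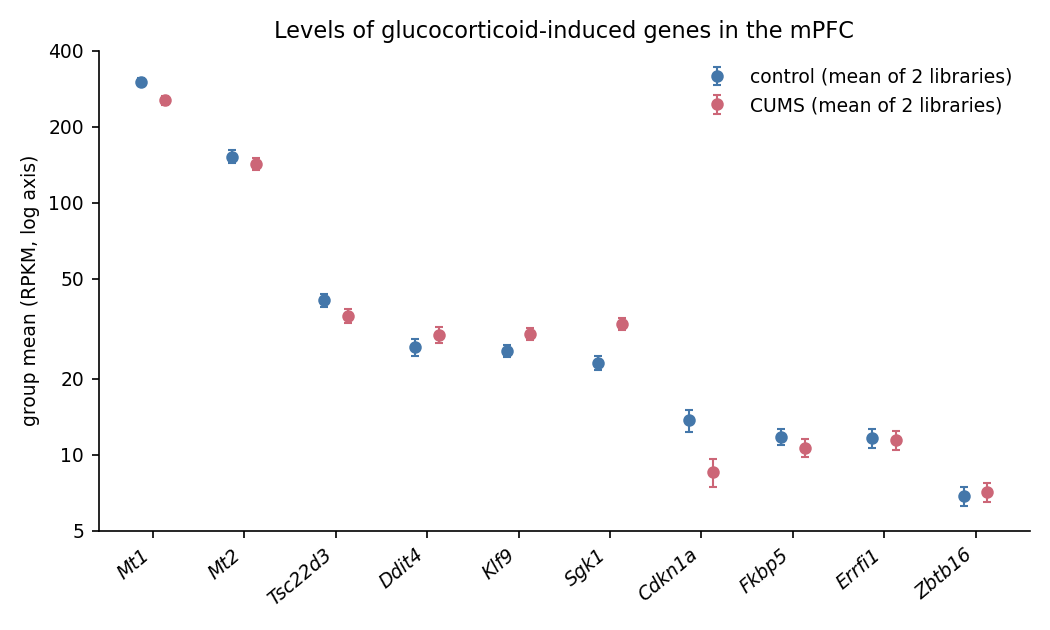
Mean RPKM of each gene is plotted on a log axis for control and CUMS (each the mean of 2 libraries, bars for the exact Poisson 95% interval of the fragments, which covers counting error alone), ordered by the control level. Mt1 and Mt2 stand far above the rest. The intervals of control and CUMS do not overlap for Sgk1, Cdkn1a, Mt1, Tsc22d3 and Klf9. The share of all genes without such overlap was not taken. For the ratio, the counting interval left out equal expression in 35.2% of all genes of at least 5 RPKM.

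Fkbp5 (gene 14229, chromosome 17, 28398753 to 28486149) codes for FKBP51, a co-chaperone that lowers the hormone affinity of the glucocorticoid receptor and so closes a short feedback loop. It is among the genes most often read as a marker of glucocorticoid action in brain. Its mean was 11.8 RPKM in control (676 fragments) and 10.6 RPKM in CUMS (614 fragments), a log2 ratio of -0.15 whose interval of -0.31 to 0.01 held 0. Fkbp4, which codes for the counterpart FKBP52 that favours hormone binding and nuclear entry, was 72.7 RPKM in control against 53.9 RPKM in CUMS, a log2 ratio of -0.43 (-0.52 to -0.34). The ratio of Fkbp5 to Fkbp4 was therefore 0.162 in control and 0.197 in CUMS. With a depth of 2 times the estimate, the interval of Fkbp5 lay under 0. Fkbp5 and Cdkn1a lie on the same chromosome with 604829 bases between them.

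Tsc22d3 (gene 14605, chromosome X, 140539528 to 140600522) codes for GILZ, a leucine zipper protein that carries much of the anti-inflammatory action of glucocorticoids. Its mean was 40.9 RPKM in control against 35.5 RPKM in CUMS, a log2 ratio of -0.20 (-0.33 to -0.08). In the same family, Tsc22d4 was lower as well (27.2 RPKM and 20.9 RPKM, log2 ratio -0.38), while Tsc22d1 was 213 RPKM and 219 RPKM (log2 ratio 0.04, interval -0.01 to 0.09). The table gives 1 value over the 6 transcripts of Tsc22d3 in GENCODE, among which the short form known as GILZ cannot be told apart.

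Mt1 (gene 17748, chromosome 8, 94178883 to 94180327) and Mt2 (gene 17750, chromosome 8, 94172618 to 94173567) code for metallothioneins, small proteins that bind zinc and copper and are made mainly by astrocytes and vessel cells in brain. They are neighbours with 5315 bases between them. Mt1 was 300.1 RPKM in control (2585 fragments) and 255 RPKM in CUMS (2211 fragments), a log2 ratio of -0.24 (-0.32 to -0.15). Mt2 was 152 RPKM and 143 RPKM, a log2 ratio of -0.10 (-0.21 to 0.02). Mt3, the form typical of brain, which is not known as a glucocorticoid target and lies 18469 bases from Mt2, was 529 RPKM in control against 466 RPKM in CUMS, a log2 ratio of -0.18 (-0.25 to -0.12). The 3 genes thus had lower CUMS means side by side, and the ratio of Mt1 to Mt3 (0.567 and 0.547) and that of Mt2 to Mt3 (0.288 and 0.306) moved within their counting intervals. The value of Mt2 is uncertain, because Gm45774 on the opposite strand covers 73.5% of its exon bases, and the similar sequences of Mt1 and Mt2 could have cost both of them reads that matched each other.

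In each group the 10 levels spanned a wide range, 43.8-fold in control and 35.8-fold in CUMS, and Mt1 and Mt2 together made up 73.8% and 70.5% of the summed RPKM. The order in control was Mt1, Mt2, Tsc22d3, Ddit4, Klf9, Sgk1, Cdkn1a, Fkbp5, Errfi1 and Zbtb16. Neighbours that could not be told apart by counting error were Ddit4 and Klf9, and Fkbp5 and Errfi1. In CUMS Sgk1 stood at rank 4 in place of 6, level with Tsc22d3 within counting error, and Cdkn1a stood at rank 9 in place of 7. Klf9 and Ddit4, and Errfi1 and Fkbp5, were again not told apart.

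**Figure D3:**
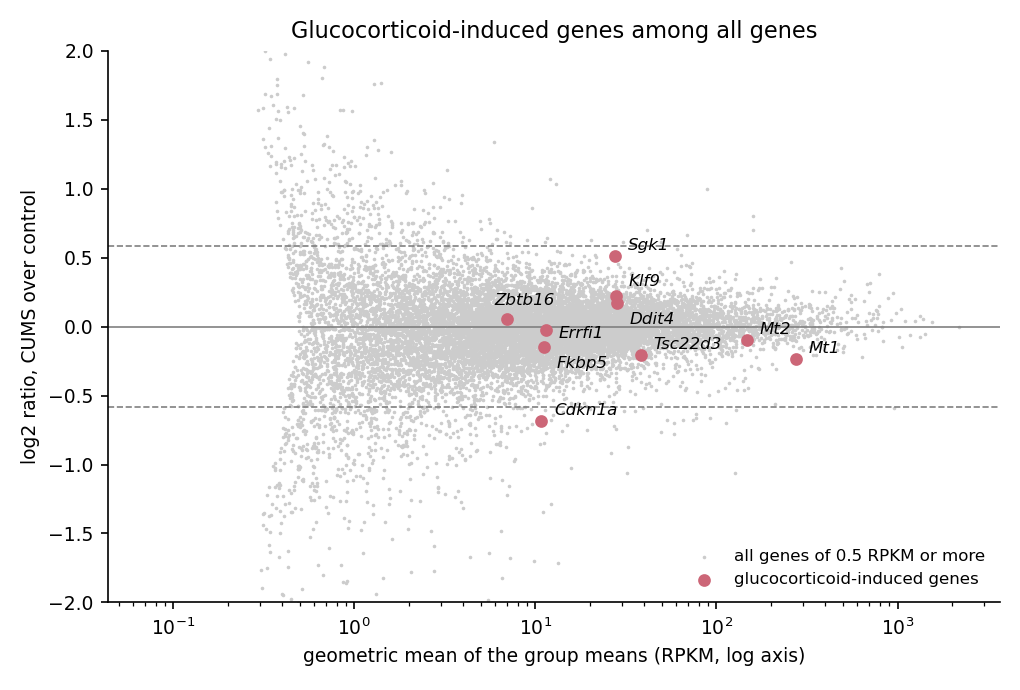
Each gene of at least 0.5 RPKM is a grey point placed by the geometric mean of its group means (RPKM, log axis) and its log2 ratio, with the 10 glucocorticoid-induced genes named in red and dashed lines at a 1.5-fold change (87 genes lie beyond the plotted range of 2). Sgk1 and Cdkn1a sit at the edges of the cloud at their level, and the other 8 genes sit inside it.

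A wider list of 30 further genes known to respond to glucocorticoids was read next to the 10 genes. Of these, 29 passed 0.5 RPKM, 11 were higher and 18 were lower in CUMS, and the median log2 ratio was -0.01. The counting interval lay above 0 in 1 gene and under 0 in 8 genes, beside 12.5% and 16.8% of all genes of at least 0.5 RPKM. Past 1.5-fold were 4 of 29 genes, each of them lower in CUMS. Among all genes of at least 0.5 RPKM it was 7.2% in either direction and 4.42% lower. Plin4, which codes for a coat protein of lipid droplets, was 1.54 RPKM in control against 0.465 RPKM in CUMS, a log2 ratio of -1.73 (-2.27 to -1.20). Sult1a1, a sulfotransferase, was 4.80 RPKM and 2.48 RPKM (log2 ratio -0.95, interval -1.46 to -0.46). Dusp1, a phosphatase that turns off MAP kinases and is also induced by neuronal activity, was 35.1 RPKM and 21.3 RPKM (-0.72, interval -0.87 to -0.58), and it is one of the genes that the study lists as lowered. Plekhf1, an endosomal protein, was 2.27 RPKM and 1.44 RPKM (-0.66, interval -1.34 to -0.01), on only 52 and 33 fragments.

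Further genes of this list with intervals under 0 were the astrocytic connexin Gjb6 (log2 ratio -0.54), the actin-binding Fam107a (-0.39), the small GTPase Arl4d (-0.23) and glutamine synthetase Glul (-0.22). The small GTPase Rhob had the interval above 0, with a log2 ratio of 0.08 (0.02 to 0.14). In 20 of the 29 genes the interval held 0. Among them, picked after the values were seen, was the clock gene Per1 (log2 ratio 0.00, interval -0.07 to 0.08). Others were Pdk4, which restrains the use of glucose (3.95 RPKM and 3.94 RPKM, interval -0.29 to 0.29), and Nfkbia, the inhibitor of NF-kB. Nfkbia was 11.7 RPKM and 12.6 RPKM (log2 ratio 0.11, interval -0.13 to 0.35). The wider intervals of Pdk4 and Nfkbia leave room for a difference in either direction.

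For the receptors, the mean of Nr3c1 was 11.6 RPKM in both groups (log2 ratio 0.00, interval -0.12 to 0.12), and Nr3c2 was 7.85 RPKM in control against 6.30 RPKM in CUMS (-0.32, interval -0.52 to -0.12). Of 14 receptor, chaperone and cofactor genes above 0.5 RPKM, the interval lay under 0 in 5 and above 0 in 0. The 5 were Fkbp4, Nr3c2, the co-chaperone Stip1 (-0.30), the coactivator Ncoa2 (-0.18) and the chaperone Hspa8 (-0.08). Among all genes of at least 0.5 RPKM these shares were 16.8% and 12.5%. Most of the 14 genes lie above 5 RPKM, where the interval left out 0 in 35.2% of all genes in either direction, so that 5 of 14 is near that share. The HSP90 genes Hsp90aa1 and Hsp90ab1, whose product holds the receptor ready for the hormone, had log2 ratios of -0.02 and 0.01.

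Cell type markers differed between the groups, and they are given here because the 10 genes are expressed in several cell types. In such bulk tissue, fewer cells of a type and less RNA per cell cannot be told apart. Of 12 markers of mature oligodendrocytes, 11 were lower in CUMS, with a median log2 ratio of -0.45 and a summed level of 1978 RPKM in control against 1352 RPKM in CUMS. Of 10 astrocyte markers, 5 were lower and 5 higher (median -0.01, summed level 1073 RPKM and 1004 RPKM), with Fgfr3 at -0.59 and Slc1a3 at 0.11. Endothelial and mural markers were lower in 5 and higher in 5 of 10 (median -0.04, summed level 136 RPKM and 123 RPKM), from Cldn5 at -0.61 to Rgs5 at 0.17. Most of the difference in the sum lies in Cldn5, with 38.1 RPKM in control and 25.0 RPKM in CUMS. Microglia markers were higher in 5 of 8 (median 0.08, summed level 240 RPKM and 254 RPKM), from C1qb at -0.05 to P2ry12 at 0.54.

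Excitatory neuron markers of the neocortex were higher in 10 of 10 (median 0.32, summed level 1607 RPKM and 1932 RPKM). Immediate early genes, whose transcription follows neuronal firing, were lower in 12 of 12 (median -0.60, summed level 754 RPKM and 482 RPKM). No marker of these lists was at 0 in either group. With 1 mean per group, any gene that is lower in CUMS shares its direction with every list that is lower there. The same holds for higher genes, so that a shared direction cannot tie the 10 genes to a cell type. The part of the cell composition in the differences of the 10 genes was not tested.

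**Figure D4:**
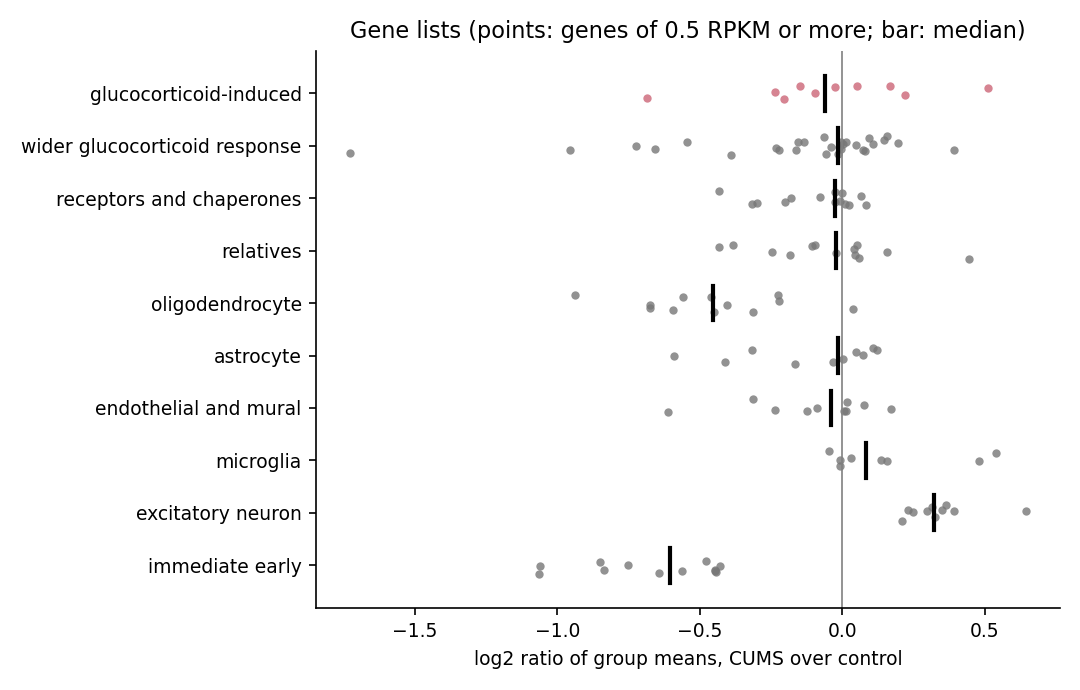
Log2 ratios (CUMS over control) of the single genes are plotted for each list, with a bar at the median of the list. The 10 glucocorticoid-induced genes spread on both sides of 0 around a median of -0.06, while oligodendrocyte markers (-0.45) and immediate early genes (-0.60) lie to the left and excitatory neuron markers (0.32) to the right.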

How the data were processed

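mRNA from the mPFC of control (2 libraries) and CUMS mice (2 libraries) was sequenced as paired reads. Per the labels and the methods of the study, poly(A) RNA reads were trimmed with SolexaQA and mapped to mm10 with TopHat 1.0.12 and Bowtie 0.11.3, with up to 3 mismatches, and reads aligned uniquely to genes were counted. Annotation and use of strand are not given in the sources used here. The authors deposited RPKM averaged over the libraries of a group, and the gene length used. Their log2 ratio, direction and NOISeq probability were not used.

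The members and lists were chosen with earlier results of these data known and after the paper had been read. Groups came from the sample titles. The depth was estimated from low values, because 1 fragment in 1 library adds a fixed step to group mean x length. This used 406 control and 392 CUMS values of genes shorter than 1000 bases whose product was below 350. The best step between 20 and 200 was 67.7 in control and 67.2 in CUMS, and the share of products no more than 0.15 from whole steps was 86.5% and 86.2%, against 31.3% and 31.4% with shuffled lengths. The read numbers that the study gives per library are larger. Where both reads of a pair were counted, the step would stand for 1 pair. Whether this or another part of the counting accounts for the gap was not tested, and if the depth is underestimated the intervals are too wide. Equal depth of the libraries of a group was assumed. PCR duplicates could not be removed.

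Fragments gave exact (Clopper-Pearson) 95% intervals of the ratio, and normal intervals on the log scale for ratios of 2 genes. The step and interval calculations were tested on simulated data. The planned limma test, a fit without each replicate and a replicate block need a value per library and were not run. The fold threshold of 1.5 is that of the study, which also required a minimum NOISeq probability that was not applied here. The minimum level was 0.5 RPKM in either group. Named were all members, list genes past 1.5-fold, those with the largest ratios whose interval leaves out 0, and relatives. Per1, Pdk4, Nfkbia, the HSP90 genes and single markers were added after their values had been seen. Gene spans and promoters are RefSeq on GRCm38.p6, the build called mm10, and gene models are GENCODE M21. Alternatives were other fold thresholds, filters, scalings, depths and a pseudocount of 0.5 RPKM. Python 3.11.15, NumPy 2.4.6 and SciPy 1.17.1 were used.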

Additional observations from a re-analysis of the deposited data

How the results depend on the processing

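No paired analysis was possible because only 1 mean per group is in the expression table used here, and leaving out a replicate was not run for the same reason. The count of glucocorticoid-induced genes past the fold threshold was 1 at 1.5-fold, 2 at the lower threshold tried (Cdkn1a and Sgk1 beyond a log2 ratio of 0.32 in size) and 0 at 2-fold, and it stayed at 1 without the filter and under both rescalings. The count of intervals that left out equal expression was 6. It was 5 with a depth of 0.5 times the estimate (without Ddit4) and 8 with 2 times the estimate (with Fkbp5 and Mt2 added). Shares over all genes were not taken at these other fold thresholds and depths. The counts there therefore show how the calls depend on the setting and cannot be set against a background. Rescaling to a median log2 ratio of 0 added 0.02 to every log2 ratio, and rescaling to an equal total took away less. In the 10 genes these rescalings and the pseudocount turned the direction of 0 ratios, and 30 of 30 alternative values lay inside the counting interval. The pseudocount changed a log2 ratio by 0.03 at most. Such changes are small beside the intervals, so that the values could hardly have fallen outside them. The median of the wider list, -0.01, was 0.001 after rescaling to a median of 0 and -0.04 over its genes of at least 5 RPKM. The spread between mice is not known for any gene, so that the differences above could be set against the counting error alone.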

Other observations

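The full glucocorticoid response element before Sgk1 was found in 2 other windows among all genes, those of Acnat2 and Gm35041, and neither symbol was matched in the expression table. Lcn2, a glucocorticoid- and inflammation-induced secreted protein on the wider list, was under 0.5 RPKM in both groups. It was 0.08 RPKM in control, which is 1 fragment, and 0.385 RPKM in CUMS, which is 5 fragments, and the counting interval of the log2 ratio ran from -0.85 to 7.87. Hsd11b2, which inactivates corticosterone, was listed at 0.01 RPKM in control, the value that stands for 0, and at 0.04 RPKM in CUMS, which is 1 fragment. Hsd11b1, which regenerates corticosterone, was 6.66 RPKM in control against 6.62 RPKM in CUMS, with a log2 ratio of -0.01 (interval -0.37 to 0.35).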
